A study of Mus musculus with 30 samples.

Results

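The comparison set pancreas RNA of mice labelled p53 KO against pancreas RNA of mice labelled i4F Ink4a/Arf KO. It took all 5 libraries of each group, 10 of the 30 libraries of the series, by their labels. The p53 KO pancreas label names no other allele, whereas the label of the other group names i4F, a doxycycline-inducible cassette of the reprogramming factors Oct4, Sox2, Klf4 and c-Myc, together with loss of Ink4a/Arf, the products of the Cdkn2a locus. All mice were C57BL/6 and drank doxycycline at 0.2 mg/ml for 7 days; ages, the Trp53 and Cdkn2a alleles, and the promoter behind the cassette were not given in the sources used here. A further 5 pancreas libraries labelled i4F, of wild-type genotype apart from the cassette, are given beside some values and entered no test. RNA was poly(A)-selected from whole pancreas, so fewer cells of a type and less RNA per cell cannot be told apart.

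The p53 protein is a transcription factor that is stabilised by DNA damage and by oncogenic signals and switches on genes of growth arrest, repair and cell death. Arf, 1 of the 2 proteins of Cdkn2a, protects p53 by binding Mdm2, and Ink4a, the other, inhibits the kinases Cdk4 and Cdk6. Forced expression of the reprogramming factors turns on both, and loss of either is known to ease reprogramming in culture. In the pancreas, acinar cells make and secrete the digestive enzymes under Ptf1a and its partners, and they are known to lose that programme and to take on ductal features when injured.

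FPKM, read fragments scaled to transcript length and to library size, are relative within a library, and the libraries differed widely in what they held. The 45 listed acinar enzymes and secretory proteins took 9.0, 19.1, 35.0, 51.8 and 1.10% of all FPKM in p53 KO replicates 1 to 5, against 76.4, 69.3, 65.7, 72.0 and 77.4% in Ink4a/Arf KO replicates 1 to 5. No p53 KO library reached the lowest Ink4a/Arf KO library, and p53 KO replicate 5 was the lowest of all. Genes at 1 FPKM or more numbered 10495 to 13180 in p53 KO libraries and 6858 to 7883 in Ink4a/Arf KO libraries. Values were therefore divided by a median-of-ratios factor, 1.06 to 3.18 in p53 KO libraries and 0.395 to 0.509 in Ink4a/Arf KO libraries, and are called scaled FPKM below, while values as deposited are given beside them for named genes whose direction differs. A fold change is p53 KO over Ink4a/Arf KO on the log2(scaled FPKM + 1) scale, which understates the change of low genes, and a gene was called at a Benjamini-Hochberg adjusted p under 0.05 in limma over all tested genes. Values of single libraries are listed from replicate 1 to replicate 5.

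Of 10508 genes tested, 7124 were called, which is 67.8%, against 9848 (93.7%) as deposited. Genes called higher in p53 KO numbered 3564 (33.9%) and genes called lower 3560 (33.9%). As deposited, 9658 genes were called higher (91.9%) and 190 lower (1.81%), and the median log2 fold change of all tested genes was 1.67 as deposited and 0.0069 scaled. On 5 scalings, the 2 already named, quantile normalization, factors taken over all 15 pancreas libraries, and scaling to the FPKM outside the acinar list, 3051 genes were called higher every time (29.0%) and 180 lower every time (1.71%). In p53 KO libraries alone 1979 of the tested genes reached 1 FPKM, while 6 did so in Ink4a/Arf KO libraries alone, so low genes entered the test mainly through p53 KO. A gene that entered only through p53 KO, where it is high, had to differ between the groups, so its p and the counts that hold it are descriptions. Of the 8523 genes at 1 FPKM in at least 1 library of each group, 2161 were called higher and 3482 lower. The lists of genes described below are set against these shares.

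**Figure D1:**
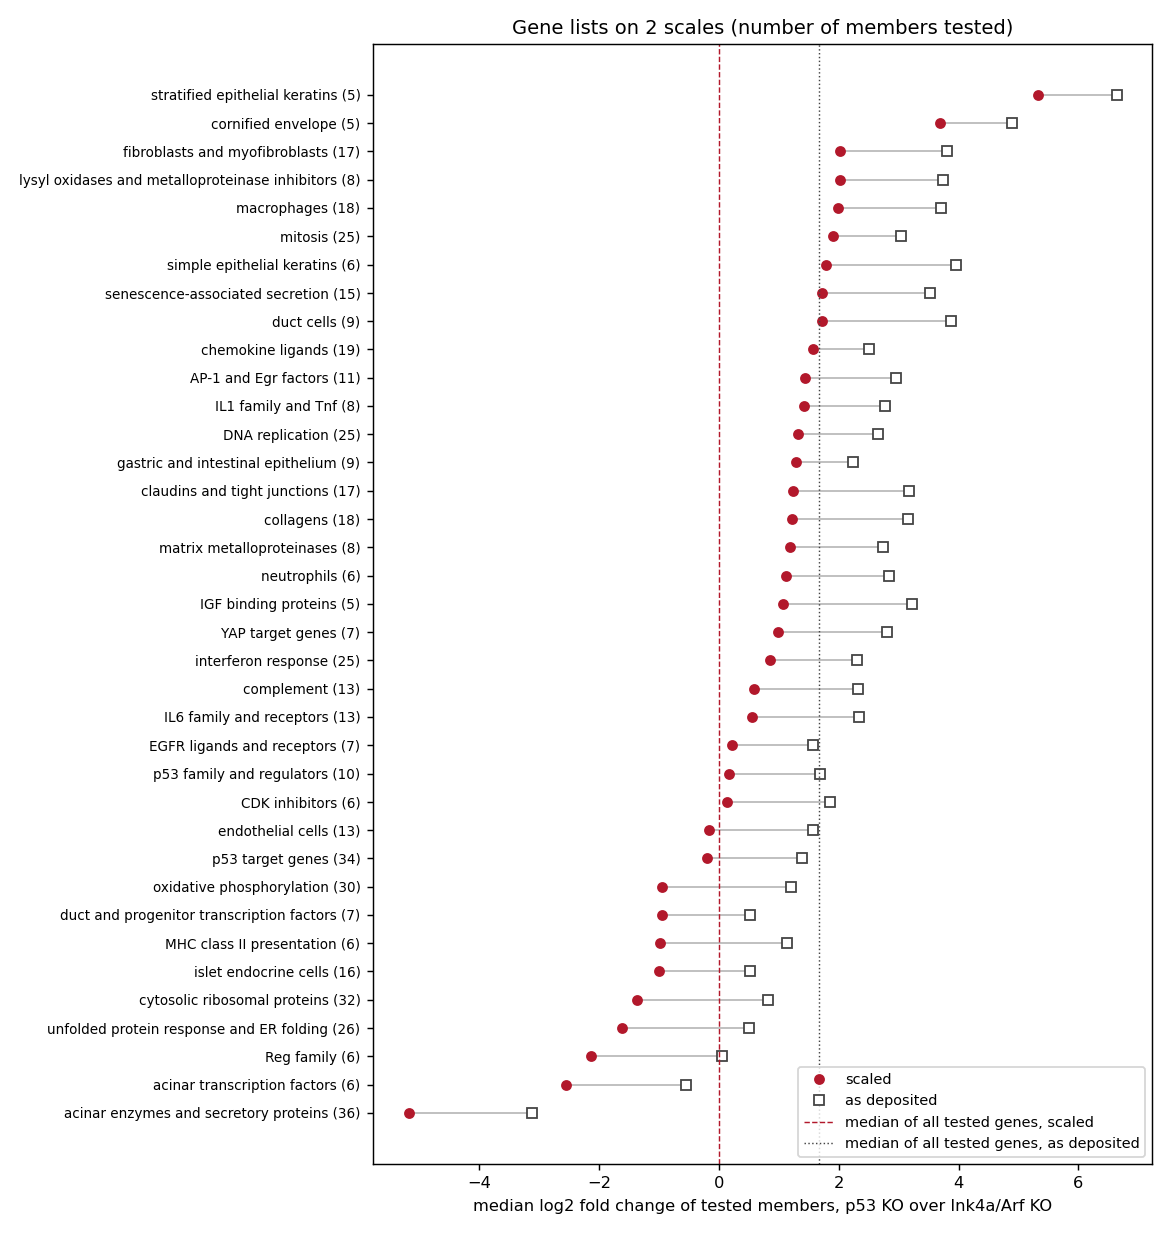
Median log2 fold change of the tested members of each gene list with at least 5 tested members, p53 KO over Ink4a/Arf KO, scaled (filled circles) and as deposited (open squares); vertical lines mark the medians of all tested genes, 0.0069 scaled and 1.67 as deposited. Acinar lists lie lowest and stratified keratins and cornified envelope genes highest on both scales, and several lists between them change side of 0 with the scale.

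Trp53, at chr11:69580359-69591873 of GRCm38 on the plus strand, was read first because it is the gene the label names. Its level was 5.16, 7.13, 6.30, 6.25 and 8.31 scaled FPKM in p53 KO libraries, against 5.56, 5.76, 5.67, 8.19 and 4.99 in Ink4a/Arf KO libraries. The groups overlapped, and the difference was not called (log2 fold change 0.12, adjusted p = 0.465). It was called higher in p53 KO as deposited (1.99, adjusted p = 4.86e-05) and scaled outside the acinar list (0.99, adjusted p = 0.00725). The allele was not given and a gene total does not show which exons were read, so Trp53 did not check the label, and the libraries are named by their labels throughout. In kidney, where the label also names i4F, Trp53 averaged 7.04 ± 2.12 FPKM as deposited in p53 KO and 15.9 ± 1.90 in Ink4a/Arf KO (SD, n = 5 each), without overlap. Cdkn2a, the locus lost in the other group, did not reach the filter for a test. It was at 3.36, 1.98, 1.22, 0.467 and 4.78 scaled FPKM in p53 KO libraries, against 0, 0.221, 0, 0 and 0 in Ink4a/Arf KO libraries, so every p53 KO library lay above. The i4F libraries, whose label names no loss at Cdkn2a, also held at most 0.391 scaled FPKM of it.

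The 4 reprogramming factors were all called higher in p53 KO on all 5 scalings, as 29.0% of tested genes were. Of the 4, Sox2 entered the test only through p53 KO. Pou5f1, which encodes Oct4, was at 25.3, 36.5, 23.9, 23.2 and 13.7 scaled FPKM in p53 KO libraries, against 1.12, 1.29, 3.41, 3.76 and 0.115 in Ink4a/Arf KO libraries. Sox2, the partner of Oct4 on DNA, was at 7.86, 8.69, 7.13, 6.06 and 5.03 scaled FPKM in p53 KO libraries, against 0.705, 0.691, 0.962, 1.19 and 0.0848 in Ink4a/Arf KO libraries. Both were lowest in replicate 5 of either group, and the groups stood far apart (log2 fold changes 3.25 ± 0.38 and 2.22 ± 0.19, SE; adjusted p = 4.38e-05 and 8.11e-06). Klf4, which is also a factor of differentiating epithelium, averaged 16.3 ± 2.98 scaled FPKM in p53 KO and 4.15 ± 0.944 in Ink4a/Arf KO (SD, n = 5 each; log2 fold change 1.75, adjusted p = 1.10e-05). Myc averaged 30.7 ± 6.00 scaled FPKM in p53 KO and 13.6 ± 1.38 in Ink4a/Arf KO (log2 fold change 1.10, adjusted p = 9.62e-05). A gene total does not separate the cassette from the mouse's own genes. The wider pluripotency network was largely below the filter: 3 of its 28 listed genes were tested, L1td1 and Tfcp2l1 only through p53 KO. The summed level of all 28 was 33.2, 79.2, 12.3, 7.73 and 14.0 scaled FPKM in p53 KO libraries. It was 3.82 to 5.16 in Ink4a/Arf KO libraries, so every p53 KO library lay above. L1td1, an RNA-binding protein of pluripotent cells, was higher in p53 KO at 4.16, 5.52, 2.36, 1.94 and 1.5 scaled FPKM, against at most 0.107 in Ink4a/Arf KO. Tfcp2l1, a factor of naive pluripotency, was called higher (0.52, adjusted p = 0.0354) and lost that call when any of 5 single libraries was left out, p53 KO replicates 1, 2 and 3 and Ink4a/Arf KO replicates 1 and 3. Lefty1, an inhibitor of Nodal, was lower in p53 KO (-1.12, adjusted p = 3.75e-05) but not as deposited (0.025, adjusted p = 0.878). Nanog was not tested, and its level was 0.686, 1.54, 0.159, 0.184 and 0.15 scaled FPKM in p53 KO libraries, against 0.0957, 0.303, 0.0975, 0.0843 and 0.118 in Ink4a/Arf KO libraries.

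**Figure D2:**
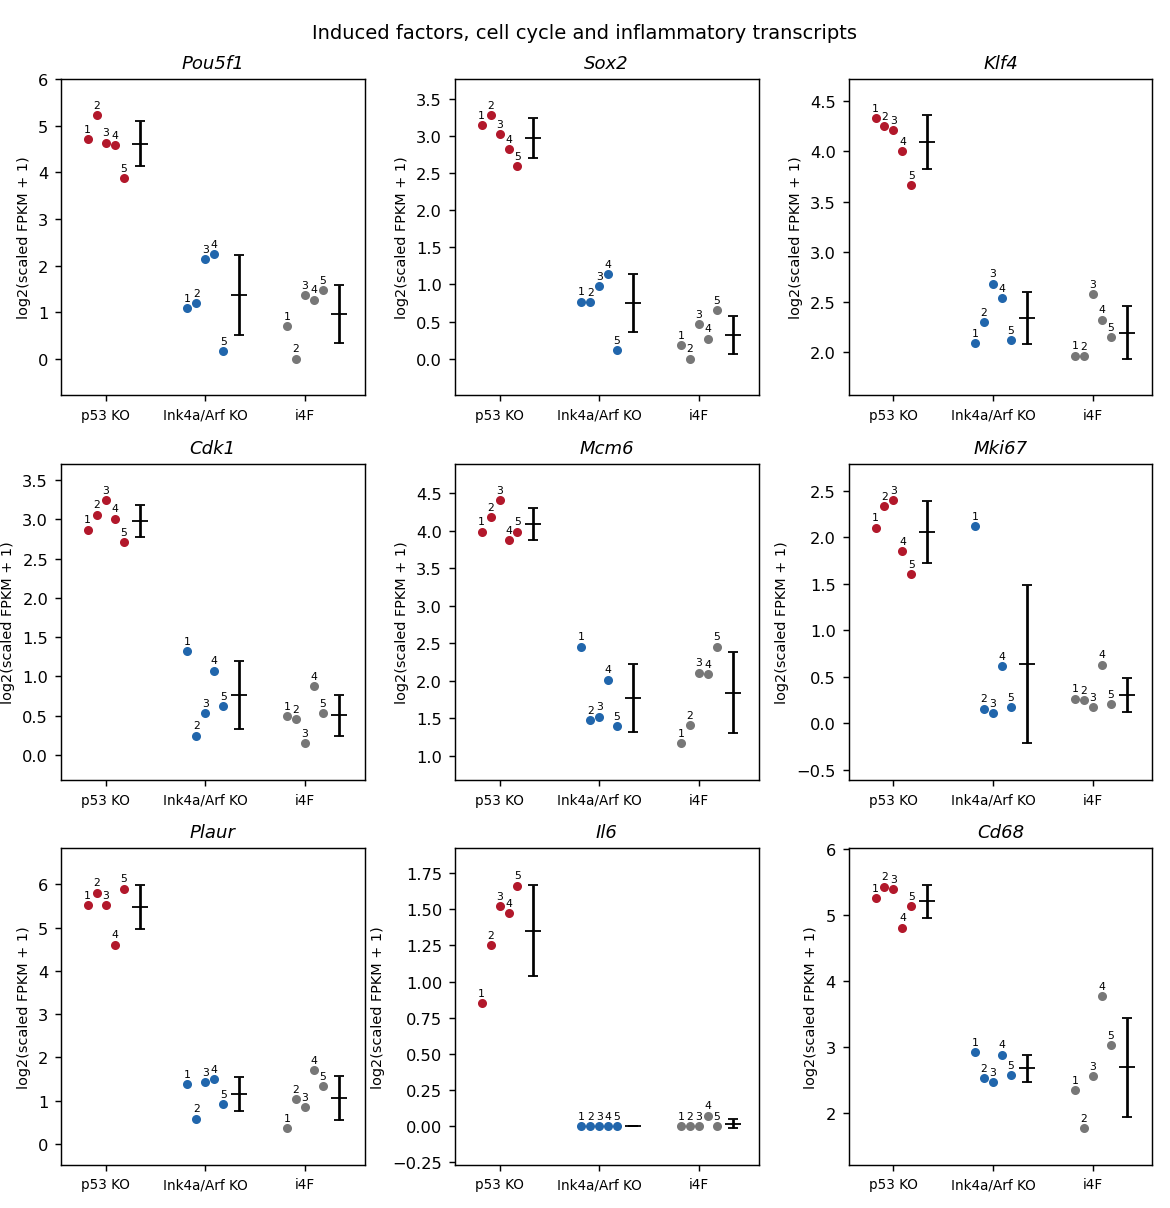
log2(scaled FPKM + 1) of 3 induced factors (top), 3 cell cycle genes (middle) and 3 inflammatory genes (bottom) in single pancreas libraries of p53 KO, Ink4a/Arf KO and i4F mice; numbers are replicates, and the bar gives the mean and SD of 5. In all panels but Mki67 the 5 p53 KO libraries lie above all Ink4a/Arf KO libraries; for Mki67, Ink4a/Arf KO replicate 1 reaches the p53 KO range.

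Direct targets of p53 did not all move the same way. The summed level of the list was 238 to 300 scaled FPKM in p53 KO libraries and 326 to 387 in Ink4a/Arf KO libraries, without overlap. As a share of all FPKM the list was higher in p53 KO, at 0.0322 to 0.171% against 0.0181 to 0.0251%. Of the 41 listed, 34 were tested, 6 of them only through p53 KO; 5 were called higher and 15 lower in p53 KO, against 33.9% of all tested genes each way, with a median log2 fold change of -0.21. Lower were Ccng1 (cyclin G1), Zmat3 (an RNA-binding protein), Mgmt (a DNA repair enzyme), Ephx1 (an epoxide hydrolase), Dcxr (a sugar reductase) and Plk2 (a stress-responsive kinase). Ccng1 was at 5.13, 4.82, 5.56, 6.47 and 7.14 scaled FPKM in p53 KO libraries, against 22.1, 18.2, 17.7, 20.6 and 15.4 in Ink4a/Arf KO libraries, which on the log2 scale is -1.54 ± 0.13 (SE; adjusted p = 6.73e-06). Zmat3 was at 1.25, 1.33, 1.59, 1.75 and 1.60 scaled FPKM in p53 KO libraries, against 5.43, 4.08, 4.40, 4.81 and 4.04 in Ink4a/Arf KO libraries (-1.15, adjusted p = 7.50e-06). Every p53 KO library lay below every Ink4a/Arf KO library for all 6 of these genes, as it did for 25.5% of tested genes. Mgmt averaged 1.86 ± 0.596 scaled FPKM in p53 KO and 10.4 ± 2.99 in Ink4a/Arf KO (SD, n = 5 each; log2 fold change -1.97, adjusted p = 3.57e-05). The log2 fold changes of Ephx1, Dcxr and Plk2 were -2.19, -2.09 and -1.43.

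Cdkn1a and Mdm2, the best known p53 targets, were not among them. Cdkn1a, which encodes the cell cycle inhibitor p21, was at 21.9, 21.9, 33.3, 26.9 and 53.7 scaled FPKM in p53 KO libraries, against 35.6, 37.8, 33.9, 45.4 and 24.1 in Ink4a/Arf KO libraries. The ranges overlapped and the difference was not called (-0.21 ± 0.25, SE; adjusted p = 0.463). Cdkn1a was called higher as deposited (1.90, adjusted p = 2.61e-04) and lower with limma's library weights (-0.53, adjusted p = 0.0291). Mdm2, the ubiquitin ligase that p53 induces and that degrades it, averaged 4.63 ± 0.711 scaled FPKM in p53 KO and 4.66 ± 0.339 in Ink4a/Arf KO and was not called (adjusted p = 0.910), but was called higher as deposited (1.78, adjusted p = 9.90e-05) and scaled outside the acinar list (0.82, adjusted p = 0.0181). The 5 listed targets called higher in p53 KO, on all 5 scalings, were Plk3 (a stress-responsive kinase), Apaf1 (the scaffold of the apoptosome), Tnfrsf10b (a death receptor), Rap2b (a small GTPase) and Perp (a desmosome protein of stratified epithelium). Plk3, Apaf1, Tnfrsf10b and Rap2b entered the test only through p53 KO, so their calls are descriptions. Plk3 was at 4.10, 4.21, 3.25, 2.14 and 3.76 scaled FPKM in p53 KO libraries, against 0.644, 0.657, 0.519, 0.339 and 0.317 in Ink4a/Arf KO libraries (1.57, adjusted p = 1.06e-05). Pmaip1, which encodes the cell death protein Noxa, was not tested, with 5.18, 6.07, 1.80, 0.908 and 8.43 scaled FPKM in p53 KO libraries, against 0.187, 0.0550, 0.0273, 0.0916 and 0.0648 in Ink4a/Arf KO libraries, and all p53 KO libraries lay above. The direction of the lower targets depended on the scale: as deposited 24 of the 34 were called higher and 0 lower, the median of all tested genes there being 1.67. As deposited Ccng1, Zmat3 and Plk2 had log2 fold changes of 0.45, 0.44 and 0.61, and Mgmt, Ephx1 and Dcxr of -0.24, -0.27 and -0.14, and none of the 6 was called. In kidney, as deposited, Ccng1 averaged 21.8 ± 3.0 FPKM in p53 KO and 64.3 ± 3.33 in Ink4a/Arf KO, and Mgmt averaged 2.33 ± 0.428 in p53 KO and 7.14 ± 1.26 in Ink4a/Arf KO (SD, n = 5 each). Neither gene's kidney groups overlapped. Zmat3 and Plk2 were also lower in p53 KO kidney without overlap. The kidney groups of Ephx1 and Dcxr overlapped, as did those of Cdkn1a, Mdm2, Plk3, Apaf1, Tnfrsf10b, Rap2b, Perp and Pmaip1. The share of all kidney genes without overlap was not computed. Dcxr averaged 122 ± 55.5 FPKM in p53 KO and 107 ± 17.9 in Ink4a/Arf KO.

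**Figure D3:**
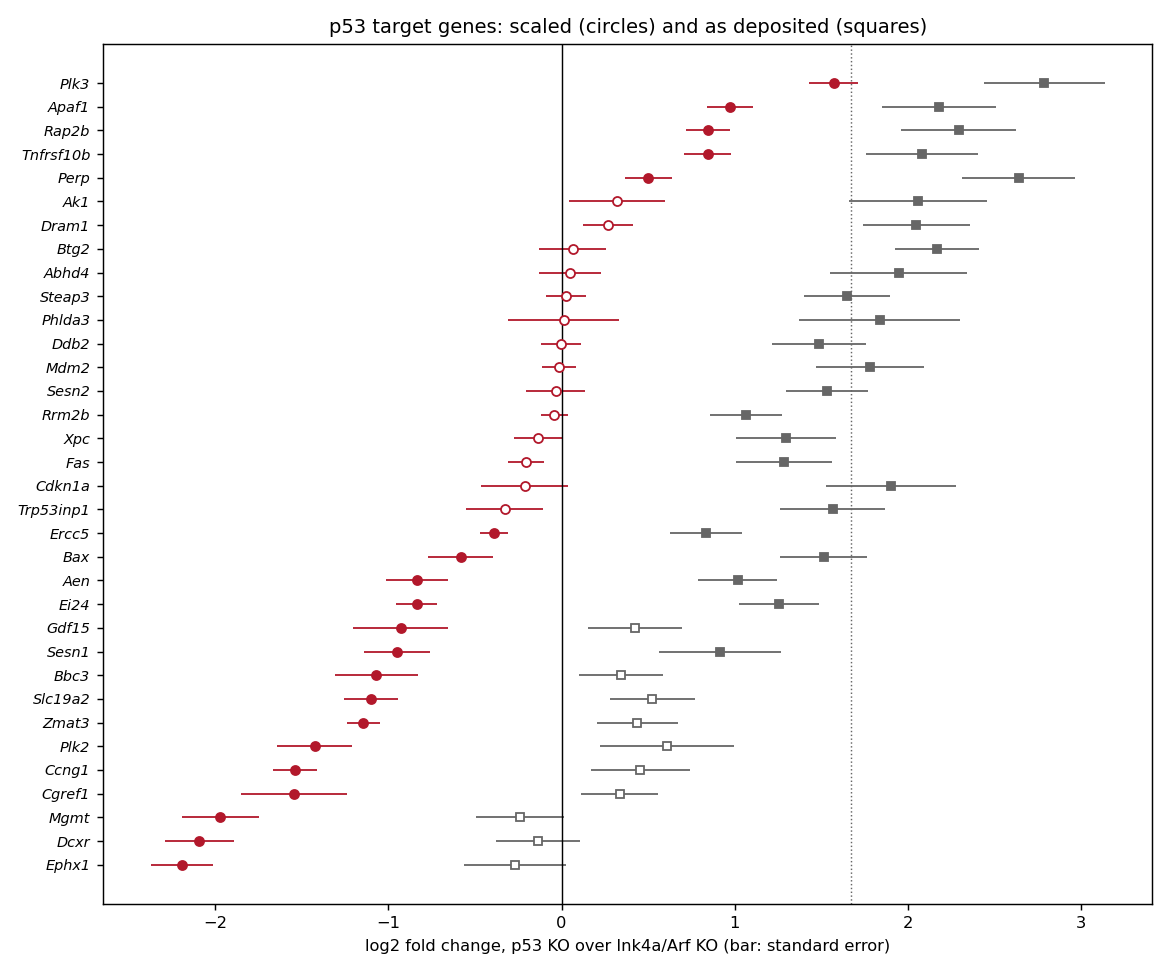
log2 fold change, p53 KO over Ink4a/Arf KO, with standard error for the 34 tested p53 target genes, scaled (circles) and as deposited (squares); filled symbols are called at an adjusted p under 0.05, the solid line marks 0 and the dotted line the median of all tested genes as deposited (1.67). Scaled values spread on either side of 0, with 15 called lower and 5 higher, while as deposited 24 are called higher and 0 lower.

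Among upstream genes of the pathway, Chek1 and Chek2, the kinases of the DNA damage checkpoints, were higher in p53 KO (log2 fold changes 0.83 and 0.92, adjusted p = 9.74e-05 and 1.06e-05). Chek1 and Chek2 entered the test only through p53 KO. The list of the p53 family and its regulators had 5 of 10 tested members called higher and 0 lower, but 5 of the 10 entered the test only through p53 KO, and 3 were higher on all 5 scalings, a share near that of all tested genes. The count fell to 2 without Ink4a/Arf KO replicate 5, and to 3 without p53 KO replicate 1 or 2 or Ink4a/Arf KO replicate 3 or 4. Of 6 tested inhibitors of cyclin-dependent kinases, Cdkn2b and Cdkn2d were called higher, a share near the 33.9% of all tested genes. Cdkn2b entered the test only through p53 KO. Cdkn2b, the neighbour of Cdkn2a that encodes p15, was at 4.50, 4.04, 2.69, 1.25 and 6.59 scaled FPKM in p53 KO libraries, against 0.793, 0.423, 0.648, 1.07 and 0.473 in Ink4a/Arf KO libraries (1.42, adjusted p = 8.59e-04). Xaf1 and AA465934 lie on chromosome 11, as Trp53 does, 2.72 and 13.7 Mb from its start in GRCm38, and were picked because they were higher without p53 in kidney. Xaf1, an interferon-induced apoptosis factor, was at 9.25, 8.05, 6.20, 4.24 and 5.78 scaled FPKM in p53 KO libraries, against 0.509, 0.184, 0.558, 0.674 and 0.617 in Ink4a/Arf KO libraries. The transcript AA465934 was at 7.95, 7.34, 14.1, 4.36 and 6.61 scaled FPKM in p53 KO libraries, against 1.71, 0.760, 0.436, 0 and 0 in Ink4a/Arf KO libraries. Both were called higher in p53 KO (2.32 and 2.54, adjusted p = 3.83e-06 and 5.86e-05), without overlap. Xaf1 and AA465934 entered the test only through p53 KO, so these values are descriptions. Of all tested genes, 26.4% lay above without overlap.

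Acinar genes were far lower in p53 KO pancreas. Of 36 tested enzymes and secretory proteins, 31 were called lower, and the median log2 fold change was -5.18; as deposited 28 were, and 19 were called lower on all 5 scalings. Ctrl (chymotrypsin-like protease) was at 206, 569, 4591, 15449 and 7.40 scaled FPKM in p53 KO libraries, against 82481, 64710.3, 74404, 77964 and 124069 in Ink4a/Arf KO libraries. Cel (bile salt-dependent lipase) was at 99.4, 529, 3531, 8709.8 and 32.5 scaled FPKM in p53 KO libraries, against 37446, 35268, 30103, 33491 and 46452 in Ink4a/Arf KO libraries. The 5 p53 KO mice were spread over a wide range and in one order for both genes: replicates 4 and 3 were highest, then 2, then 1, and replicate 5 was lowest, while all Ink4a/Arf KO mice lay above them. The log2 fold changes were -7.13 ± 1.64 for Ctrl and -6.01 ± 1.32 for Cel (SE, adjusted p = 0.00257 and 0.00190). Besides these, the largest falls by the rule for named genes were Cela1 (an elastase, -7.15), Clps (the cofactor of pancreatic lipase, -6.53), Pla2g1b (a phospholipase, -6.39), Sycn (a zymogen granule protein, -6.14), Tff2 (a trefoil peptide, -6.12), Cpa1 (a carboxypeptidase, -6.05) and Rnase1 (a ribonuclease, -6.00). With quantile normalization the calls of Cpa1 (-3.26, adjusted p = 0.0581) and Rnase1 (-3.27, adjusted p = 0.0694) were lost, and that of Cpa1 also with all 15 pancreas libraries in the fit (adjusted p = 0.0520). Prss2, a trypsinogen of a multigene family between whose copies reads can be split, had a log2 fold change of -5.05, and its call was lost with quantile normalization (-1.61, adjusted p = 0.195), with no filter and with all 15 libraries in the fit. The processed pseudogene Gm15772 had the largest fall of the genes named by that rule (-9.22) and was at most 0.923 scaled FPKM in p53 KO libraries, against 157, 1853, 609, 773 and 1289 in Ink4a/Arf KO libraries. In the i4F libraries it was at 1527, 936, 343, 0.265 and 66.3, so it was near 0 there too in replicate 4. A further 3 abundant enzymes could not be read: Cela2a and Ctrb1 were listed at 0 in all 5 Ink4a/Arf KO libraries, and Pnlip in 3 of them, so the call of Cela2a as higher in p53 KO describes the listing and no fold is given.

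**Figure D4:**
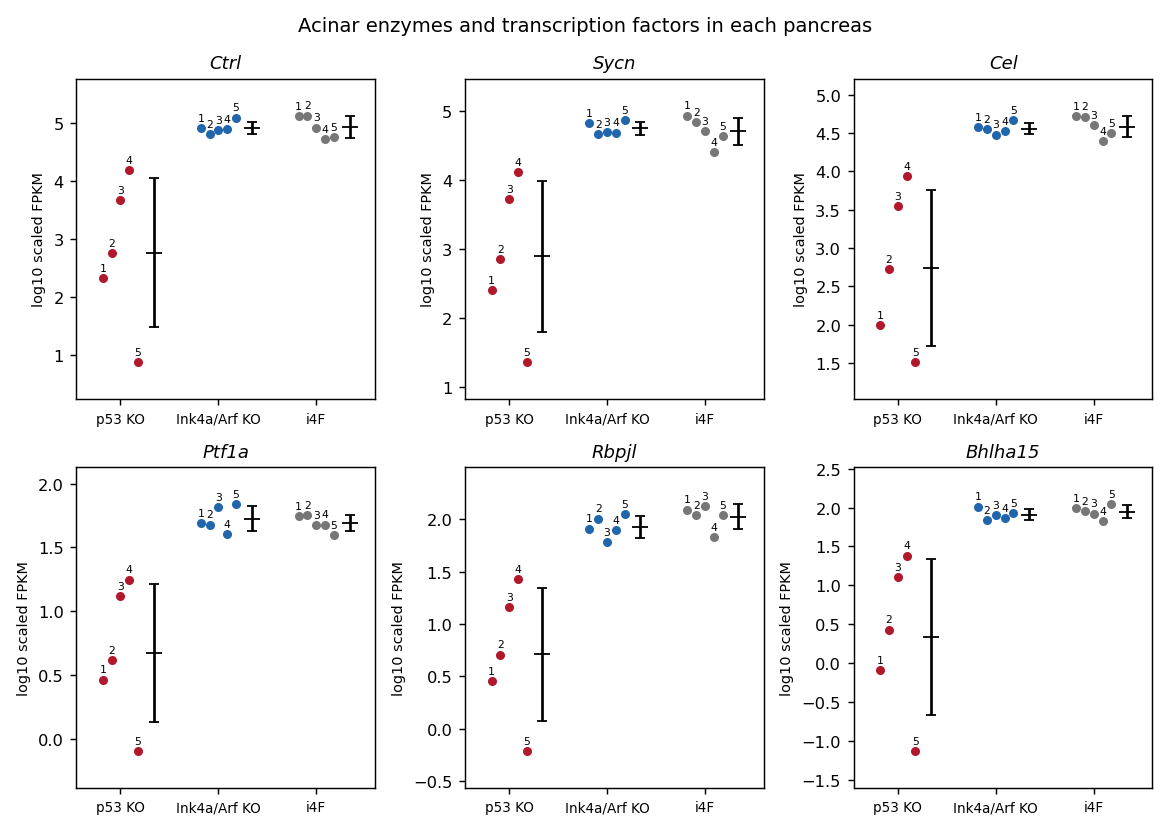
log10 scaled FPKM of 3 acinar secretory genes (top) and 3 acinar transcription factors (bottom) in single pancreas libraries of p53 KO, Ink4a/Arf KO and i4F mice; numbers are replicates, and the bar gives the mean and SD of 5 log10 values. All p53 KO libraries lie below all Ink4a/Arf KO libraries, and within p53 KO replicates 3 and 4 are highest and replicate 5 lowest.

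The transcription factors of acinar cells fell as well: all 6 tested were called lower in p53 KO, and Ptf1a, Rbpjl and Bhlha15 were lower on all 5 scalings. Ptf1a, the master factor, was at 2.92, 4.16, 13.2, 17.7 and 0.807 scaled FPKM in p53 KO libraries, against 49.3, 47.7, 65.8, 39.9 and 68.7 in Ink4a/Arf KO libraries (-3.11, adjusted p = 4.75e-04). Rbpjl, its pancreas-restricted partner, was at 2.87, 5.10, 14.6, 26.7 and 0.614 scaled FPKM in p53 KO libraries, against 81.4, 101, 60.4, 79.0 and 112 in Ink4a/Arf KO libraries (-3.62, adjusted p = 4.77e-04). Bhlha15, also called Mist1, which organises the secretory apparatus, was at 0.808, 2.70, 12.7, 24.2 and 0.0743 scaled FPKM in p53 KO libraries, against 103, 69.3, 79.6, 73.2 and 84.8 in Ink4a/Arf KO libraries (-4.11, adjusted p = 5.63e-04). The order of the p53 KO mice was that of the enzymes, with replicates 3 and 4 highest. Nr5a2 had a log2 fold change of -1.53 scaled and 0.087 as deposited, and Gata4 of -1.08 scaled and 0.94 as deposited, where it was called higher (adjusted p = 5.95e-04).

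The Ptf1a and Rbpjl proteins bind together to a site that joins an E-box to a box of the RBPJ type. The 250 bases before the RefSeq start (GRCm38.p6) of 2 of the genes with the largest falls show such a box, TTTCCCA on either strand, in capitals. Cpa1 lies on the plus strand of chr6:30638968-30639217 and Cel on the minus strand of chr2:28563404-28563653.
Cpa1: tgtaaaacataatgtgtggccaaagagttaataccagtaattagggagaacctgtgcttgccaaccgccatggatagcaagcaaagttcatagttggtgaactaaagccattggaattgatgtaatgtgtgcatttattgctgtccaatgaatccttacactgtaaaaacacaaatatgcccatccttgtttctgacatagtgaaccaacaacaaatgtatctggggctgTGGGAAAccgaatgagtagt
Cel: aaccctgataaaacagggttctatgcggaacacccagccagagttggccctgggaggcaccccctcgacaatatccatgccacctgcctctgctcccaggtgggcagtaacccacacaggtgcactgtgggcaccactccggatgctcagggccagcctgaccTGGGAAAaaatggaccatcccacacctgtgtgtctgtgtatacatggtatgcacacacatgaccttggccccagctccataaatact
The first base of the box stood 20 bases before the start in Cpa1 and 87 in Cel. Over windows that also took the first 50 transcribed bases, 6 of 34 acinar genes with a RefSeq start held the box (17.6%), against 7.51% of tested genes and 8.02% of all promoters, and 30 of 34 held an E-box, CANNTG (88.2%), against 62.3% and 72.1%. Genes of a list are counted here and in the searches below whether or not they were tested. These matches describe letters and no binding was measured.

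The machinery of protein secretion was lower in p53 KO relative to the median gene. Of 26 genes of the unfolded protein response and of folding in the endoplasmic reticulum, 22 were called lower and 1 higher scaled (median -1.63), against 4 lower and 13 higher as deposited. The 4 lower on every scaling were Sel1l and Herpud1, of the degradation of misfolded proteins, Sdf2l1, a chaperone, and Creld2, an isomerase induced by stress in the reticulum. Creld2 was at 7.14, 10.8, 24.8, 30.9 and 8.80 scaled FPKM in p53 KO libraries, against 132, 81.8, 101, 101 and 121 in Ink4a/Arf KO libraries (-2.83, adjusted p = 6.78e-05). Its i4F libraries held 52.5, 54.5, 51.3, 54.3 and 59.4 scaled FPKM, between both groups. Sel1l, Herpud1 and Sdf2l1 had log2 fold changes of -3.10, -2.72 and -2.86. Hspa5, the chaperone BiP, had -1.46 scaled (adjusted p = 1.15e-04) but 0.72 as deposited (adjusted p = 0.00806), Xbp1 -2.0 scaled and 0.17 as deposited, and Atf6 -0.78 scaled and 1.12 as deposited. The 1 member called higher scaled, Pdia3, lost the call when any of 7 single libraries was left out, which were all but p53 KO replicates 1 and 4 and Ink4a/Arf KO replicate 1.

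A bipartite ER stress element, CCAAT followed after 9 bases of any kind by CCACG on either strand, marks genes that Atf6 and Xbp1 induce. It was found in the window of 8 of 23 genes of the list with a RefSeq start (34.8%), Hspa5 and Creld2 among them, against 13 of all 7587 tested genes with a start (0.171%) and 0.130% of all promoters. The upstream 250 bases of Creld2 (plus strand of chr15:88819396-88819645) and Hspa5 (plus strand of chr2:34771840-34772089) carry it in capitals, on opposite strands.
Creld2: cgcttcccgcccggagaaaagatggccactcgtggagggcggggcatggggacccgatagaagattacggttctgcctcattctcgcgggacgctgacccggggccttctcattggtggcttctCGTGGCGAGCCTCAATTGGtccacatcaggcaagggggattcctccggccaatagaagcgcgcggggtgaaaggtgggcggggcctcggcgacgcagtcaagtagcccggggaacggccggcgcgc
Hspa5: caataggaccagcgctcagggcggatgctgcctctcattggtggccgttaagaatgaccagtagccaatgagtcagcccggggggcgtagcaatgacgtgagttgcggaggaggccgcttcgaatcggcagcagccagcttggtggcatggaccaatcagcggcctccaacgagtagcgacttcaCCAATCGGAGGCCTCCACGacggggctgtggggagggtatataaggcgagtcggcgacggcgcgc
The element began 126 bases before the start of Creld2 and 65 before that of Hspa5.

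Cytosolic ribosomal proteins and subunits of oxidative phosphorylation shared this dependence on scale. All 32 tested ribosomal protein genes were called lower scaled (median -1.37), while 27 were called higher as deposited (median 0.82). Quantile normalization left 9 lower and 1 higher (median -0.18), and scaling outside the acinar list 7 lower and 0 higher (median -0.36). Rpl32 had log2 fold changes of -1.91 scaled and 0.28 as deposited. Of 30 tested subunits of oxidative phosphorylation, 29 were called lower scaled (median -0.96) and 28 higher as deposited (median 1.21). There 21 were lower with quantile normalization, and 5 lower and 2 higher scaled outside the acinar list. Ndufa1, a subunit of complex I, had -2.12 scaled and 0.039 as deposited. On both scales these lists lay below the median of all tested genes.

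Genes of stratified epithelium, which the normal exocrine pancreas lacks, were higher in p53 KO. All 5 tested keratins of stratified epithelium and all 5 tested genes of the cornified envelope were called higher, with median log2 fold changes of 5.33 and 3.69; 9 of these 10 were under 1 FPKM in all Ink4a/Arf KO libraries, so they entered the test through p53 KO. Krt14, a keratin of basal cells at chr11:100203162-100207548 of GRCm38, was at 26.4, 56.4, 49.2, 28.6 and 82.0 scaled FPKM in p53 KO libraries, against 0, 0.398, 0.343, 0.237 and 0.111 in Ink4a/Arf KO libraries. Krt6a, a keratin of wounded and oral epithelium, was at 47.0, 64.3, 146, 68.3 and 114 scaled FPKM in p53 KO libraries, against 0.326, 0.196, 1.31, 0.972 and 0.521 in Ink4a/Arf KO libraries. Both keratins were at or under 1.31 scaled FPKM in every Ink4a/Arf KO mouse and at or above 26.4 scaled FPKM in every p53 KO mouse (5.23 and 5.66, adjusted p = 1.02e-06 and 1.02e-06). Krt13, of internal stratified epithelium, and Krt16, of activated keratinocytes, had log2 fold changes of 5.51 and 5.33. Tgm1, the transglutaminase that cross-links the envelope, was at 45.7, 46.4, 47.6, 20.5 and 42.7 scaled FPKM in p53 KO libraries, against 0.0859, 0.399, 0.544, 0.698 and 0.401 in Ink4a/Arf KO libraries (4.82, adjusted p = 7.64e-07). Cnfn (cornifelin) and Krtdap followed with 4.82 and 2.9. Trp63, the p53 family factor that defines basal stratified epithelium, was at most 0.0253 scaled FPKM in p53 KO libraries and 0.0787 in Ink4a/Arf KO libraries, so a defining marker of that epithelium was near 0.

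The rule for named genes picked 2 small nucleolar RNAs among the largest rises, Snord100 and Snord32a, both listed at 0 in all Ink4a/Arf KO libraries; they span 74 and 83 bases, and no fold is given. The others were Sprr2b, a small proline-rich envelope protein of a multigene family (6.31), Ly6g6c (6.25), the metalloproteinase inhibitor Timp1 (5.78), AA467197 (5.73), Krt6a, Krt13, the raft protein Mal (5.45) and the tight junction protein Cldn4 (5.40). Sprr2b was at 48.8, 48.9, 107, 193 and 445 scaled FPKM in p53 KO libraries, against at most 0.952 in Ink4a/Arf KO libraries (adjusted p = 7.34e-06). It entered the test only through p53 KO. Its highest p53 KO library was replicate 5, and replicate 4 came next. AP-1 sites, TGANTCA on either strand, stood in 10 of 19 windows of cornified envelope genes (52.6%), 6 of 18 of genes of the senescence-associated secretion (33.3%) and 1 of 4 of stratified keratins (25.0%), against 5.05% of tested genes and 7.92% of all promoters. Krtdap, on the plus strand of chr7:30787655-30787904, shows 1 in its upstream 250 bases, beginning 81 bases before the start.
Krtdap: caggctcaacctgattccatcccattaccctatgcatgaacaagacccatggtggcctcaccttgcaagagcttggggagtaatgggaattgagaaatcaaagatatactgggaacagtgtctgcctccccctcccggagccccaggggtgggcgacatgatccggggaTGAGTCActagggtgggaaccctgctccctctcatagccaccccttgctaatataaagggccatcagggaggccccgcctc
Of the AP-1 and Egr factors themselves, 9 of 11 tested genes, 4 of which entered only through p53 KO, were called higher on all 5 scalings, among them Fosl1 (1.09), Atf3 (1.58) and Junb (2.56).

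**Figure D5:**
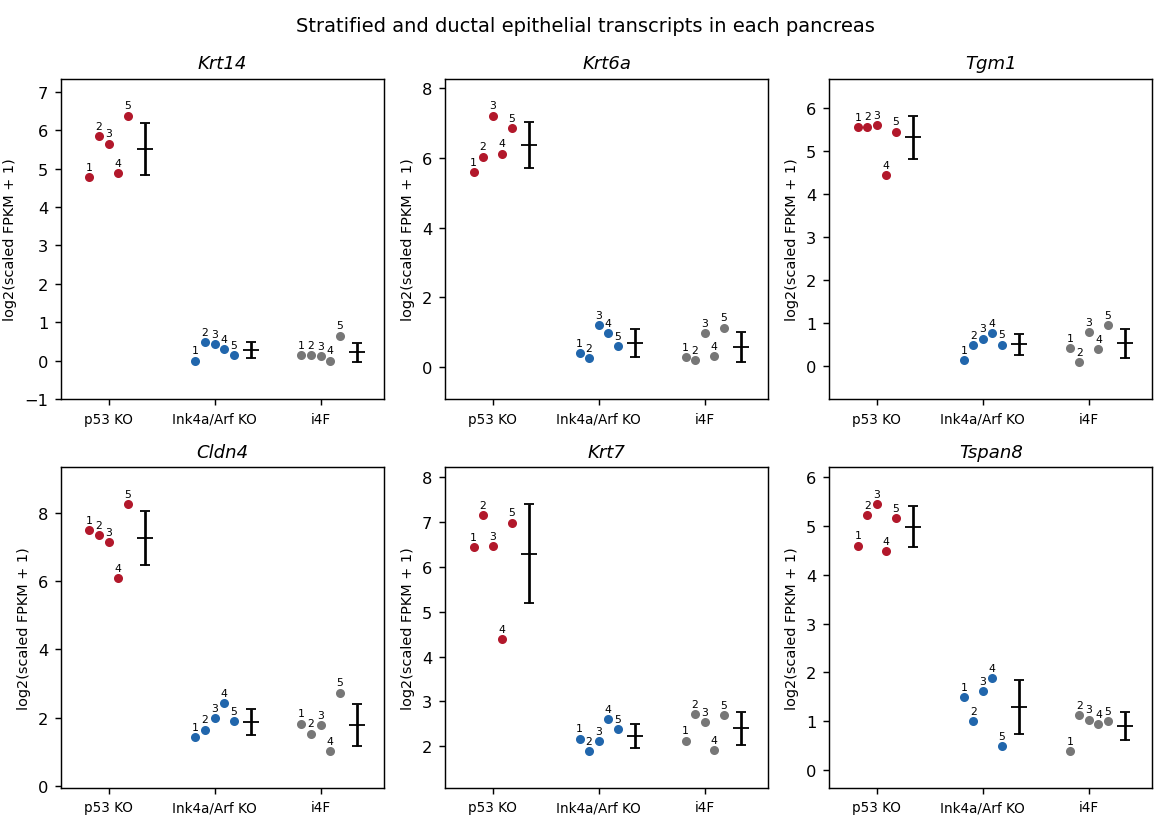
log2(scaled FPKM + 1) of stratified (Krt14, Krt6a, Tgm1), tight junction (Cldn4) and ductal (Krt7, Tspan8) epithelial genes in single pancreas libraries of p53 KO, Ink4a/Arf KO and i4F mice; numbers are replicates, and the bar gives the mean and SD of 5. In each panel the 5 p53 KO libraries lie above all Ink4a/Arf KO and i4F libraries, and replicate 4 is the lowest p53 KO library for Tgm1, Cldn4, Krt7 and Tspan8.

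Markers of duct cells divided between effector genes and transcription factors. Of 9 tested duct cell genes, 7 were called higher in p53 KO on all 5 scalings and 1, Muc1, lower scaled. Krt7, a ductal keratin, was at 85.8, 140.3, 87.3, 20.0 and 126 scaled FPKM in p53 KO libraries, against 3.50, 2.73, 3.31, 5.06 and 4.23 in Ink4a/Arf KO libraries (4.05, adjusted p = 2.79e-05). Krt19, the classical duct keratin, averaged 299.7 ± 80.2 scaled FPKM in p53 KO and 70.1 ± 40.5 in Ink4a/Arf KO (SD, n = 5 each; 2.23, adjusted p = 2.80e-04). Tspan8 and Anxa3, membrane proteins, had 3.68 and 2.78, Spp1 (osteopontin) 1.71, and Muc1 (a mucin of acinar and ductal surfaces) -1.79 scaled and 0.36 as deposited. The duct and progenitor transcription factors went the other way on the scaled values: 6 of 7 tested were called lower, Foxa2 (-1.63) and Sox9 (-0.69) among them. As deposited 4 of the 7 were called higher and 0 lower, with Foxa2 at 0.30 and Sox9 at 0.88. Hes1, a Notch target, was the 1 called higher (0.46, adjusted p = 0.0303), and the call was lost when any of 6 single libraries was left out, p53 KO replicates 3 and 5 and Ink4a/Arf KO replicates 1, 3, 4 and 5.

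Among simple epithelial keratins Krt20, of intestinal and bladder epithelium, had a log2 fold change of 3.74 and Krt8 of 1.35, while Krt18, the partner of Krt8, was not called scaled (0.24, adjusted p = 0.339) but was called higher with quantile normalization (0.79, adjusted p = 0.00835), outside the acinar list (1.25, adjusted p = 0.00227) and as deposited (2.42, adjusted p = 2.65e-05). Of 17 tested claudins and tight junction genes, 11 were called higher and 2 lower, all 13 on every scaling. Of all tested genes 29.0% were called higher and 1.71% lower on every scaling, and 2 of the 17 entered only through p53 KO. Cldn4 was at 181, 162, 141, 67.2 and 306 scaled FPKM in p53 KO libraries, against 1.69, 2.13, 2.95, 4.34 and 2.71 in Ink4a/Arf KO libraries. Cldn10, a claudin that acinar cells express, was at 3.14, 3.76, 8.44, 15.9 and 2.24 scaled FPKM in p53 KO libraries, against 28.4, 41.8, 45.7, 48.8 and 78.0 in Ink4a/Arf KO libraries. The claudins thus changed in opposite directions, with Cldn18, of stomach, at 2.72 and Cldn8 at -2.18 besides. Of the EGF family, Egf was lower on every scaling (-2.84, adjusted p = 3.93e-05), and its receptor relative Erbb3 (1.46) and the ligand Hbegf (1.44) were higher. Tff1, a gastric trefoil peptide, was at 163, 98.1, 1166, 310.3 and 60.8 scaled FPKM in p53 KO libraries, against 3.49, 7.95, 61.7, 40.0 and 3.01 in Ink4a/Arf KO libraries (3.95, adjusted p = 0.00323). The highest library was p53 KO replicate 3, and Ink4a/Arf KO replicate 3 reached the p53 KO range.

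Matrix and mesenchymal genes rose with the epithelial ones. Of 18 tested collagens 15 were called higher, of 17 tested genes of fibroblasts and myofibroblasts 14, and of 8 tested lysyl oxidases and metalloproteinase inhibitors 7, each on all 5 scalings, with medians of 1.21, 2.02 and 2.02. Of the tested genes 3 collagens, 1 fibroblast gene and 3 of the oxidases and inhibitors entered only through p53 KO. Col1a1, a chain of fibrillar collagen, was at 297, 526, 359, 147 and 982 scaled FPKM in p53 KO libraries, against 11, 13.0, 16.0, 26.0 and 21.4 in Ink4a/Arf KO libraries (4.43, adjusted p = 1.62e-05). Replicate 5, lowest in acinar transcripts, was the highest in Col1a1, and replicate 4, highest in acinar transcripts, the lowest of p53 KO. Col3a1 had a log2 fold change of 3.77, Lox (a collagen cross-linking enzyme) 3.73, Loxl4 2.66, Tnc (tenascin C of wound matrix) 4.02, Postn (periostin) 3.88 and the metalloproteinase Mmp14 2.88. Acta2, the actin of myofibroblasts, averaged 49.8 ± 33.6 scaled FPKM in p53 KO and 6.45 ± 5.39 in Ink4a/Arf KO (SD, n = 5 each; 2.78, adjusted p = 2.73e-04). Col7a1, of epithelial anchoring fibrils, was the 1 collagen called lower scaled (-1.10; 0.60 as deposited). The mesenchymal transcription factors Snai1 and Zeb2 were higher (1.55 and 1.07). So were 6 of 7 tested genes listed for YAP, against 33.9% of all tested genes. Among them were Cyr61 (3.19) and Tead4 (1.96), which entered the test only through p53 KO. Msln, made by mesothelium, was at 126, 144, 61.6, 20.9 and 164 scaled FPKM in p53 KO libraries, against 1.78, 1.33, 3.61, 3.91 and 4.61 in Ink4a/Arf KO libraries (4.45, adjusted p = 3.88e-05). Of 5 tested IGF binding proteins 3 were called higher, Igfbp4 among them (1.51), and 1 lower. Of all tested genes 33.9% were called each way and 67.8% either way.

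Nearly all tested genes of cell division were higher in p53 KO. All 25 tested genes of mitosis were called higher on all 5 scalings (median 1.91). Of 25 tested genes of DNA replication, 24 were called higher scaled (median 1.33), 22 on all 5 scalings. Of all tested genes, 33.9% were called higher scaled and 29.0% on all 5 scalings. In mitosis 15 and in replication 11 of the tested genes were under 1 FPKM in every Ink4a/Arf KO library. They entered the test only through p53 KO, so their p and the counts that hold them are descriptions. Cdk1, Kif2c, Kif20a and Lig1 are among them. Cdk1, the kinase that drives mitosis, was at 6.30, 7.34, 8.48, 7.04 and 5.56 scaled FPKM in p53 KO libraries, against 1.51, 0.188, 0.452, 1.11 and 0.544 in Ink4a/Arf KO libraries (2.22 ± 0.19, SE; adjusted p = 8.46e-06). Mcm6, a subunit of the replicative helicase, was at 14.9, 17.2, 20.3, 13.7 and 14.9 scaled FPKM in p53 KO libraries, against 4.48, 1.77, 1.87, 3.04 and 1.63 in Ink4a/Arf KO libraries (2.32, adjusted p = 8.46e-06). The p53 KO mice were close together for both genes, whereas Ink4a/Arf KO replicate 1 was the highest of its group. For Mki67, the proliferation antigen Ki-67, that library reached the p53 KO range, with 3.30, 4.06, 4.28, 2.6 and 2.04 scaled FPKM in p53 KO libraries, against 3.34, 0.116, 0.0808, 0.529 and 0.131 in Ink4a/Arf KO libraries (1.42, adjusted p = 0.00415). Kif2c and Kif20a, mitotic kinesins, had 1.61 and 1.69, Top2a (topoisomerase) 2.10 and Lig1 (a DNA ligase) 1.43.

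Promoters of mitotic genes are known for a cell cycle homology region, TTTGAA, through which the DREAM complex, a brake that p53 engages through p21, represses them. TTTGAA on either strand stood in the window of 17 of 23 mitosis genes with a RefSeq start (73.9%), against 11.5% of tested genes and 18.2% of all promoters, and CCAAT in 18 of 23 (78.3%), against 38.7% and 38.0%. The upstream 250 bases of Cdk1 (minus strand of chr10:69352913-69353162) and Top2a (minus strand of chr11:99024190-99024439) each hold TTTGAA on 1 strand or the other at 2 places, in capitals.
Cdk1: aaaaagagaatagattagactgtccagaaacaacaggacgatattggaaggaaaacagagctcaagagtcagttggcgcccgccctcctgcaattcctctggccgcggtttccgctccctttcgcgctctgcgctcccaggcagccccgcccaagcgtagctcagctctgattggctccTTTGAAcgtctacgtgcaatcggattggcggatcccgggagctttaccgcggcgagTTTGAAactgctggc
Top2a: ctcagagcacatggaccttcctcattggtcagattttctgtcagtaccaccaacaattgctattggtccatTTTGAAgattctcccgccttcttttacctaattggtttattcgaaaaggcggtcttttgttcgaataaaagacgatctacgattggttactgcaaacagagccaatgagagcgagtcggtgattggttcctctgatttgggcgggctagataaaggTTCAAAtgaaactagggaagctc
The matches nearest the start began 15 bases before it in Cdk1 and 23 in Top2a.

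Inflammatory genes were higher in p53 KO as well. Of 15 tested genes of the senescence-associated secretion, cytokines and proteases that arrested cells release, 13 were called higher and 0 lower, on all 5 scalings, but 7 of the 15 entered the test only through p53 KO. Il6, a cytokine known to favour reprogramming in tissue, was at 0.805, 1.38, 1.87, 1.78 and 2.17 scaled FPKM in p53 KO libraries and listed at 0 in all Ink4a/Arf KO libraries, so it entered the test only through p53 KO. Plaur, the urokinase receptor, was at 45.1, 55.1, 45.1, 23.4 and 58.8 scaled FPKM in p53 KO libraries, against 1.59, 0.497, 1.67, 1.80 and 0.890 in Ink4a/Arf KO libraries (4.32, adjusted p = 1.56e-06). Plaur entered the test only through p53 KO as well, and neither gene's groups overlapped. The neutrophil-attracting chemokine Cxcl5 had a log2 fold change of 2.98, Cxcl16 3.52 and the monocyte-attracting Ccl2 3.42. Of the IL1 family, Il1rn (the receptor antagonist) had 2.54 and Il18 2.83, and 7 of 8 tested members of that list were called higher, 4 of the 8 having entered only through p53 KO. Of 19 tested chemokine ligands, 7 of which entered only through p53 KO, 13 were called higher and 1 lower.

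Macrophage markers moved with these genes: 17 of 18 tested, 3 of which entered only through p53 KO, were called higher on all 5 scalings, and the whole list took 0.0887 to 0.769% of FPKM in p53 KO libraries and 0.0109 to 0.0259% in Ink4a/Arf KO libraries. Cd68, of macrophage lysosomes, was at 37.3, 42.3, 41.3, 27.2 and 34.4 scaled FPKM in p53 KO libraries, against 6.59, 4.80, 4.54, 6.41 and 4.97 in Ink4a/Arf KO libraries (2.53, adjusted p = 1.46e-06). Csf1r, the receptor on which macrophages depend, had 1.36, Cd14 2.27, and the complement receptors C5ar1 and C3ar1 2.15 and 2.05. The part of macrophages in the cytokine levels was not tested. MHC class II genes, which macrophages and dendritic cells share, did not follow: 4 of 6 tested were called lower scaled (median -0.98), 2 without Ink4a/Arf KO replicate 4, and all 6 were called higher as deposited. With quantile normalization 0 were called either way, and scaled outside the acinar list 2 were called higher and 0 lower. H2-Ab1 and H2-Eb1 had -0.99 and -0.96 scaled and 1.10 and 1.06 as deposited. Neutrophil genes were uneven within both groups. S100a8 was at 849, 61.9, 17.5, 15.3 and 69.0 scaled FPKM in p53 KO libraries, against 439.5, 2.95, 4.55, 30.4 and 0 in Ink4a/Arf KO libraries, and was not called (adjusted p = 0.196). Replicate 1 was the highest of either group. Cxcr2, their chemokine receptor, entered the test only through p53 KO. It and Ltf were the 2 of 6 tested called higher (0.86 and 2.2), against 33.9% of all tested genes. Without Ink4a/Arf KO replicate 1 there were 4, S100a8 among them, and without p53 KO replicate 1 or 2 or Ink4a/Arf KO replicate 2, 3, 4 or 5 there was 1. Ltf lost its call there, without p53 KO replicate 3 alone or with replicate 4, with quantile normalization and with no filter. Of 13 listed T cell genes none reached the filter.

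Of the interferon-stimulated genes, 19 of 25 tested were called higher and 0 lower, with a median of 0.85. But 13 of the 25, Oasl1 among them, entered the test only through p53 KO. Oasl1, a 2'-5' oligoadenylate synthetase-like protein, was at 8.46, 7.45, 9.49, 4.55 and 4.31 scaled FPKM in p53 KO libraries, against 0.549, 0.360, 0.323, 0.456 and 1.13 in Ink4a/Arf KO libraries (2.30, adjusted p = 1.16e-05). Irf7, the factor that amplifies the response, had 1.79. Isg15, a ubiquitin-like modifier, was at 15.3, 14.4, 14.6, 10.3 and 9.65 scaled FPKM in p53 KO libraries, against 11, 2.83, 2.62, 3.76 and 4.44 in Ink4a/Arf KO libraries, where replicate 1 reached the p53 KO range (1.35, adjusted p = 0.00188). The interferon-stimulated response element, searched as TTTC, 2 bases of any kind and TTTC on either strand, stood in 13 of 24 windows of the list (54.2%), against 3.02% of tested genes and 3.49% of all promoters. Isg15, on the minus strand of chr4:156200819-156201068, holds 3 overlapping matches, in capitals, the first beginning 78 bases before the start.
Isg15: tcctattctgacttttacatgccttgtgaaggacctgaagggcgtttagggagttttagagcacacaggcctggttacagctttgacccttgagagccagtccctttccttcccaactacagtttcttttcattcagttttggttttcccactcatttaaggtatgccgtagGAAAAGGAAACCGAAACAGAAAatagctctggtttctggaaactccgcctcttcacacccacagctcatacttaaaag

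Endothelial and islet genes had smaller or less regular differences. Of 13 tested endothelial genes 0 were called higher and 4 lower scaled, against 33.9% of all tested genes each way. As deposited all 13 were called higher, as were 91.9% of all tested genes. Kdr and Flt1, receptors of VEGF, had -0.78 and -0.86 scaled and 0.97 and 0.70 as deposited. Of 16 tested islet genes 1 was called higher (3 without Ink4a/Arf KO replicate 4 and 2 without p53 KO replicate 1). Called lower were 2 (4 without p53 KO replicates 3 and 4), against 33.9% of all tested genes each way. Ins2 (insulin) was at 85.8, 16.2, 634, 1506 and 7.44 scaled FPKM in p53 KO libraries, against 538, 100.2, 219, 8228 and 1594 in Ink4a/Arf KO libraries, a spread within each group wider than the difference between them (adjusted p = 0.139). Ins2 was called lower without p53 KO replicates 3 and 4 (log2 fold change -4.88, adjusted p = 0.00852 in limma) and without p53 KO replicate 4 alone (-3.70, adjusted p = 0.0411). Nkx2-2, an islet factor, was lower on every scaling (-1.37, adjusted p = 9.11e-05). Reg1, an acinar protein of regeneration, was called lower scaled (-4.02, adjusted p = 0.00664) and not with quantile normalization. Hbb-b2, a globin of red blood cells, was lower scaled (-3.10, adjusted p = 0.0140), and Ink4a/Arf KO replicate 1, at 339 scaled FPKM, was the highest library.

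Leaving out p53 KO replicates 3 and 4, the p53 KO libraries with the most acinar RNA, gave 7315 called genes, 3631 higher and 3684 lower, of which 6783 were among the 7124 in the same direction. By Xist and Ddx3y all p53 KO libraries and 4 of 5 Ink4a/Arf KO libraries were male, and Ink4a/Arf KO replicate 1 female. Nothing says that libraries came from separate litters or days, so p-values measure the spread between these libraries.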

How the data were processed

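The deposited table holds FPKM per gene for 5 p53 KO, 5 Ink4a/Arf KO and 5 i4F pancreas libraries, made from poly(A) RNA by a strand-specific kit, per the labels' protocols. The authors used TopHat2 2.0.10, Bowtie 1.0.0, SAMtools 0.1.19, Cufflinks 2.2.1 and FastQC with the build mm10, per the submitters' processing notes, which give no order. Read counts behind the FPKM were not used here, so depth is unknown and no counting interval is given, and abundant genes listed at 0 may be failed estimates. Of 19685 deposited gene names, 54 that occurred more than once were left out.

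Here, FPKM were divided by a median-of-ratios factor per library, computed over 13523 genes above 0 in all 10, and taken as log2(FPKM + 1). Genes at 1 FPKM or more in at least 5 of the 10 libraries, 10508 in all, were tested two-sided with limma 3.58.1 (R 4.3.3; trended variance) and Benjamini-Hochberg adjustment at 0.05. No covariate was used. The steps were also run on simulated data in which few genes changed, equally often up and down. In the libraries compared 67.8% of tested genes were called, so that run cannot check the scaling here. Gene positions are those of GRCm38, and promoters are RefSeq's (GRCm38.p6). Motifs were searched from 250 bases before to 50 bases after each start. Same-numbered libraries of both groups showed little shared deviation (r from -0.169 to 0.199), so the main fit did not pair them. The check cannot exclude a shared litter or day. Alternatives changed the scaling, pseudocount, filter, libraries in the fit, replicate block and library weights, and left out each library.

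The comparison and the 47 lists of 741 genes were chosen with earlier results of these data known. Genes named by rule were 11 of the study's interest, the 10 largest rises and 10 largest falls without overlap at 2 scaled FPKM or more, and the called list members of smallest p, up to 2 a list, leaving out genes listed at 0 in 1 library and at 1000 FPKM or more in another. A further 54 of 148 named genes were chosen after their values were seen, and they are Acta2, Apaf1, Bhlha15, Ccl2, Cdk1, Cela2a, Cldn10, Cldn18, Cldn8, Cnfn, Col7a1, Csf1r, Ctrb1, Dcxr, Gata4, Hbegf, Herpud1, Hes1, Hspa5, Ins2, Irf7, Isg15, Junb, Krt16, Krt18, Krt19, Krt8, Lox, Mdm2, Mgmt, Mki67, Muc1, Nr5a2, Pdia3, Perp, Plk2, Plk3, Pmaip1, Pnlip, Prss2, Rap2b, S100a8, Sdf2l1, Sel1l, Sox9, Spp1, Tfcp2l1, Tff1, Tnc, Tnfrsf10b, Top2a, Trp63, Xbp1 and Zmat3. Named genes that entered the test only through p53 KO, at under 1 FPKM in all Ink4a/Arf KO libraries, were AA465934, AA467197, Apaf1, Atf3, C3ar1, Cd44, Cdk1, Cdkn2b, Cela2a, Chek1, Chek2, Cldn18, Cnfn, Cxcl5, Cxcr2, Cyr61, Fosl1, Hbegf, Il1rn, Il6, Kif20a, Kif2c, Krt14, Krt16, Krt6a, Krtdap, L1td1, Lig1, Lox, Loxl4, Mal, Mmp19, Oasl1, Plaur, Plk3, Rap2b, Snord100, Snord32a, Sox2, Sprr2b, Tead4, Tfcp2l1, Tgm1, Tnc, Tnfrsf10b, Xaf1 and Zeb2.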

Additional observations from a re-analysis of the deposited data

Results flagged for a closer look

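Over 296 groups of 5 libraries of the genes named, 23 held 1 library far from the other 4 by Dixon's test; chance gives about 1 in 20 groups. Values are scaled FPKM.

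In p53 KO, replicate 4, which kept the most acinar RNA, was low in the epithelial and invasion genes Cnfn (9.06, others 41.4 to 72.3), Krt7 (20.0, others 85.8 to 140.3), Tgm1 (20.5, others 42.7 to 47.6) and Plaur (23.4, others 45.1 to 58.8), and high in Atf6 (5.57, others 4.55 to 4.82) and the pseudogene Gm15772 (0.923, others at most 0.157). Replicate 3 was high in Il18 (30.1, others at most 12.7) and Krt8 (527, others at most 353), and replicate 5 in the metalloproteinase Mmp19 (3.50, others at most 2.51).

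In Ink4a/Arf KO, replicate 1 was high in Ltf (13.7), Mki67 (3.34) and Cxcl5 (0.0679, others 0), and low in Krt18 (71.6, others 139 to 163) and Mgmt (5.29, others 10.5 to 12.8). Replicate 2 was high in Cdkn2a (0.221, others 0), Erbb3 (3.11) and Nanog (0.303). Replicate 4 was high in Acta2 (16.0, others at most 4.72) and Trp53 (8.19, others at most 5.76). Replicate 5 was high in Cela1 (178552, others at most 118484), Spp1 (94.7) and L1td1 (0.107), and low in Hbegf (0.264).

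Some acinar genes, and the trefoil peptide Tff2, went opposite ways in the 2 tissues. Every p53 KO library lay below every Ink4a/Arf KO library in pancreas and above it in kidney. They were Cel (log2 fold change -6.01 in pancreas), Clps (-6.53), Cpa1 (-6.05), Ctrl (-7.13), Pla2g1b (-6.39), Rnase1 (-6.00) and Tff2 (-6.12). In kidney Clps averaged 129 ± 101 FPKM as deposited in p53 KO and 2.13 ± 2.94 in Ink4a/Arf KO, and Cel averaged 36.3 ± 28.4 in p53 KO and 0.629 ± 0.770 in Ink4a/Arf KO (SD, n = 5 each). These kidney levels were far below those of Ink4a/Arf KO pancreas. The kidney groups of Cela1, Sycn, Prss2, Ctrb1 and Reg1 overlapped, and the share of all kidney genes without overlap was not computed. The difference between the tissues was not tested.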

How the results depend on the processing

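The split into higher and lower moved most with the scale, and the total called most with the minimum FPKM. As deposited 9658 were called higher and 190 lower, and with the FPKM sum outside the acinar list as the scale 6552 were called higher and 778 lower, the median log2 fold change of all tested genes being 1.67 and 0.79. Quantile normalization gave 3241 higher and 3814 lower, and factors over all 15 pancreas libraries 3668 and 3463. With a minimum of 5 FPKM, 3639 of 5048 tested genes were called, 1529 higher and 2110 lower. Leaving out each library in turn gave 6534 to 7276 called genes, 3308 to 3660 higher and 3226 to 3663 lower. The other alternatives kept all 3 counts within 1.5 times.

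The genes named gave 3241 values over 23 alternatives, of which 3136 kept their direction and side of the threshold, 60 lost the call, 12 gained it and 33 changed sign. As deposited the sign changed for Atf6 (1.12), Ccng1 (0.45), Cdkn1a (1.90), Col7a1 (0.60), Flt1 (0.70), Foxa2 (0.30), Gata4 (0.94), H2-Ab1 (1.10), H2-Eb1 (1.06), Hspa5 (0.72), Kdr (0.97), Lefty1 (0.025), Mdm2 (1.78), Muc1 (0.36), Ndufa1 (0.039), Nr5a2 (0.087), Plk2 (0.61), Rpl32 (0.28), Sox9 (0.88), Xbp1 (0.17) and Zmat3 (0.44). On the scale outside the acinar list it changed for Atf6 (0.10), Cdkn1a (0.77), Kdr (0.036), Mdm2 (0.82) and Sox9 (0.026), with quantile normalization for Cdkn1a (0.048), and with factors over 15 libraries for Mdm2 (0.0056). Mdm2, which was not called, also changed sign with single libraries left out, which gave -0.079 to 0.025, and, with Pnlip, without p53 KO replicates 3 and 4 (0.042 and -0.42), an alternative chosen after seeing the data.

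The libraries share only a replicate number, and no p53 KO library beyond replicates 1 and 3 correlated best with its own number. With the number as a block 6860 genes were called, 3448 higher and 3412 lower, and of the genes named only Pdia3 (adjusted p = 0.0660) and Tfcp2l1 (adjusted p = 0.0588, limma) lost their calls. The number of lower Reg family members went to 3 with the block, against 1.

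FPKM carry no depth, so low values such as those of Cdkn2a and Nanog have no counting error here. The acinar share of FPKM moved with the groups throughout, and its part in the differences was not tested.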

Other observations

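Receptors and signalling genes of the IL6 family changed beyond the cytokine itself, with 9 of 13 tested members called higher in p53 KO on all 5 scalings and 3 lower on the median-of-ratios scale. Jak2, the kinase bound to these receptors, was at 6.79, 6.05, 4.99, 3.57 and 8.13 scaled FPKM in p53 KO libraries, against 2.07, 2.17, 2.13, 2.15 and 2.00 in Ink4a/Arf KO libraries (log2 fold change 1.11, adjusted p = 1.35e-04, limma), without overlap. Of 8 tested matrix metalloproteinases 5 were called higher and 1 lower, against 33.9% of all tested genes each way. Mmp19 had a log2 fold change of 1.03 (adjusted p = 3.19e-05, limma). Complement genes had 6 of 13 tested members called higher and 0 lower, 4 of them on all 5 scalings. That is near the share of all tested genes, 33.9% called higher and 29.0% on all 5 scalings. Of the tested members, 3 of the IL6 family, 2 metalloproteinases, Mmp19 among them, and 2 complement genes entered only through p53 KO.

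Gastric and intestinal markers were mixed, with 4 of 9 tested called higher and 2 lower, and 1 lower when p53 KO replicate 1 or 5 or Ink4a/Arf KO replicate 2, 4 or 5 was left out. Of all tested genes 33.9% were called each way, and 3 of the 9, Cd44 among them, entered only through p53 KO. Cd44, an adhesion receptor listed there for gastrointestinal progenitors and also found on leukocytes and fibroblasts, was at 25.3, 30.1, 14.4, 10.3 and 35.0 scaled FPKM in p53 KO libraries, against 1.90, 0.808, 1.11, 1.94 and 0.655 in Ink4a/Arf KO libraries (3.31, adjusted p = 1.37e-05). Every p53 KO library lay above every Ink4a/Arf KO library.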
